A study of Mus musculus with 3 samples.

Results

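The regions described here were distal Ser5 peaks that the untreated library held and the LPS library did not. Ser5 is the form of RNA polymerase II (Pol_II) phosphorylated at serine 5 of the repeats of its largest subunit's tail, and it was mapped by chromatin immunoprecipitation and sequencing (ChIP-Seq). A region was chosen by 4 conditions. It was a peak of the untreated library that overlapped no peak of the LPS library. It lay outside every protein-coding gene, outside the 10 kb past each gene's 3′ end, and more than 2 kb from any coding start site (mm9 genome, GENCODE M1 genes, chromosomes 1 to 19 and X). It held at least 10 untreated tags, a tag being 1 aligned read counted at its 5′ end. Its untreated RPM (tags per 1000000 tags of the library) was at least 2 times its LPS RPM, with 0 tags set to 0.5. These conditions selected 1743 of the 53467 untreated peaks. They made up 39.1% of the 4458 distal untreated peaks, beside 28.2% of all untreated peaks that met the same overlap, tag and ratio conditions anywhere in the genome. Of the other distal untreated peaks, 2081 overlapped an LPS peak, 261 had under 10 tags and 373 were under the ratio of 2. Because the overlap, the untreated tags and the ratio chose the regions, their loss after LPS is a description and carries no test.

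The series had 3 libraries, 1 for each condition, so no difference has a replicate check and no p-value is given. All came from macrophages grown for 7 days from the bone marrow of female Fvb mice. The Ser5 untreated library and the Ser5 LPS library (10 ng/ml lipopolysaccharide for 2 h) used the same antibody, ab5131, and the third library was input DNA of untreated cells with no immunoprecipitation. Culture, treatment and sequencing run cannot be told apart with 1 library each, nor can fewer cells carrying Pol_II at a site be told apart from less Pol_II per cell. The libraries held 7616771, 6249819 and 7533308 tags on these chromosomes. Tags outside all peaks made up 49.9% of the untreated, 46.3% of the LPS and 95.5% of the input tags. Intervals below are 95% intervals and cover counting error only: exact for tag ratios and Wilson for shares. The labelled cell type was checked against its markers. All 8 macrophage genes checked, Csf1r, Cd68, Emr1, Itgam, Lyz2, Sfpi1, Fcgr1 and Mpeg1, had at least 2 times the input density in the untreated library. In the LPS library 7 of the 8 did, and Itgam stood below input (0.444 against 0.725 RPM per kb). None of the B cell, fibroblast, mast cell, dendritic cell or neutrophil markers reached that level in the untreated library. Cd79b (0.767 against 0.388 in input) and S100a8 (2.18 against 1.10) stood just under it. Of 4 T cell genes 1 reached it (Lck), and of 3 erythroid genes 1 (Klf1). All 6 LPS response genes checked, Tnf, Il1b, Ccl5, Cxcl10, Nfkbia and Il6, were above that level in the LPS library, and 3 of them in the untreated library. Densities were scaled to all tags and were not rescaled to tags outside peaks.

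Serine 5 of the Pol_II tail is phosphorylated as transcription starts, so Ser5 ChIP-Seq marks polymerase engaged near start sites and, at lower level, within genes. Pol_II also loads outside genes, at enhancers and at unannotated promoters, where it makes short or unstable noncoding RNA. In macrophages such sites are often bound by the ETS-family factor PU.1 together with AP-1, C/EBP, IRF or RUNX factors, and lipopolysaccharide, a bacterial wall component sensed by the receptor TLR4, brings NF-kB, AP-1 and IRF factors to chromatin. The same signal shuts off part of the resting program, including growth genes and genes of the resting macrophage.

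Sequences are shown for the named regions that held the most different motifs, and for the strongest region with the PU.1/ETS letters, since the motif shares below turn on them. Each is the plus strand of 300 bases around the densest untreated tags, read from the mm9 genome (NCBIM37). Capitals mark matches, on either strand, to the 16 motifs searched. The first, chr14:65962338-65962637 upstream of Zfp395, held the GC box GGGCGGG of KLF and SP factors at 4 starts, an E-box CACGTG and the IRF letters GAAANNGAA. The second, chr7:152297208-152297507, lies far upstream of Ccnd1 and held C/EBP letters (TTGCNNAA), an NF-kB match and a TATA match. The third, chr13:24882473-24882772 near BC005537, held IRF letters, STAT letters (TTCNNNGAA) and a TATA match (TATAAA). The fourth, chr6:108520983-108521282 upstream of Bhlhe40, held an E-box, MAF letters (TGCTGAC) and a GC box. The last, chr14:47981062-47981361 upstream of Lgals3, was chosen after its values were seen, and held the PU.1/ETS letters GAGGAAGT on the minus strand.
Zfp395 region: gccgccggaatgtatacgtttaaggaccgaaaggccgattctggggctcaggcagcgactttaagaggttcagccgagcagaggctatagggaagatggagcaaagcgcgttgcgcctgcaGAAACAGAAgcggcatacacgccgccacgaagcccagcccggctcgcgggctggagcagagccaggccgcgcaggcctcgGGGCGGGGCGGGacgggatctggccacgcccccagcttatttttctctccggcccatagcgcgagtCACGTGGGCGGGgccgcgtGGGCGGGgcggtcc
Ccnd1 region: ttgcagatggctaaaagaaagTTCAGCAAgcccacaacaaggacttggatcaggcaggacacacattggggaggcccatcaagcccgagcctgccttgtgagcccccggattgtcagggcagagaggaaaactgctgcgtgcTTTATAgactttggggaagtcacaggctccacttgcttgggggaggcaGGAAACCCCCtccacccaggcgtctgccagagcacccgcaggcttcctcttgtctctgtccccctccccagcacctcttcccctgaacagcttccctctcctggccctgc
BC005537 region: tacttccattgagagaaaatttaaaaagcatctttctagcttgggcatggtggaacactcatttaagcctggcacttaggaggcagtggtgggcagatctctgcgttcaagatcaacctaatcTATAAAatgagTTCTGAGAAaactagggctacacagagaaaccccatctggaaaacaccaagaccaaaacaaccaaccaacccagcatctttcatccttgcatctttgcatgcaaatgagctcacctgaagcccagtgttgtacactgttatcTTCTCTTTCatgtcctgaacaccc
Bhlhe40 region: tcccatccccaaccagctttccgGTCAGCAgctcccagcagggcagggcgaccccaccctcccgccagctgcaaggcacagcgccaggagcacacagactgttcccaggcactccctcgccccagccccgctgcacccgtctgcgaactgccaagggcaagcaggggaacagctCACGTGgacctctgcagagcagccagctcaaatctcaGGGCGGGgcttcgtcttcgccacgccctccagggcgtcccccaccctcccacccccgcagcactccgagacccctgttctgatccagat
Lgals3 region: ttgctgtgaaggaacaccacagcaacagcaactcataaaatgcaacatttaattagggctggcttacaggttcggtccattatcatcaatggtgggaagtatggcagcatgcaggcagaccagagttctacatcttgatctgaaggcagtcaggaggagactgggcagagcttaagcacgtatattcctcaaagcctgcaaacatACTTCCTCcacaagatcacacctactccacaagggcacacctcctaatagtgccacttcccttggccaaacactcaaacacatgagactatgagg

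Most lost regions were short and of modest height. Their median length was 374 bp (range 117 to 2913), and the median untreated count was 22 tags (10th to 90th percentile 12 to 56, highest 358). The same intervals held a median of 4 LPS tags (1 to 12) and 3 input tags (1 to 10). In 130 regions the LPS library had no tag, and in another 566 it had 1 to 3. Summed over the 1743 regions, 53282 untreated, 9711 LPS and 8098 input tags were counted, or 9.27, 2.06 and 1.43 RPM per kb. The LPS to untreated ratio of the sum was 0.222 (0.217 to 0.227), a value the selection fixes in direction. Input entered the rule through the peak calls, which MACS made against it, so values against input are a description as well. Scaled to all tags, the untreated sum was 6.51 times as dense as input (6.36 to 6.66) and the LPS sum 1.45 times (1.40 to 1.49). Scaled to tags outside peaks, these were 12.4 and 2.98 times. The LPS density was at least 2 times that of input in 681 regions (39.1%) by all tags and in 1185 (68.0%) by tags outside peaks. It was at or below input in 562 (32.2%) and 250 (14.3%), so the level of LPS tags against input depends on the scaling. By all tags, the distal peaks shared by both libraries were 12.1 times (11.9 to 12.3) as dense as input in the untreated and 10.9 times (10.7 to 11.1) in the LPS library. The plot of untreated against LPS tags shows the lost regions as the lower edge of 1 continuous cloud of distal peaks, not as a separate cluster.

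**Figure D1:**
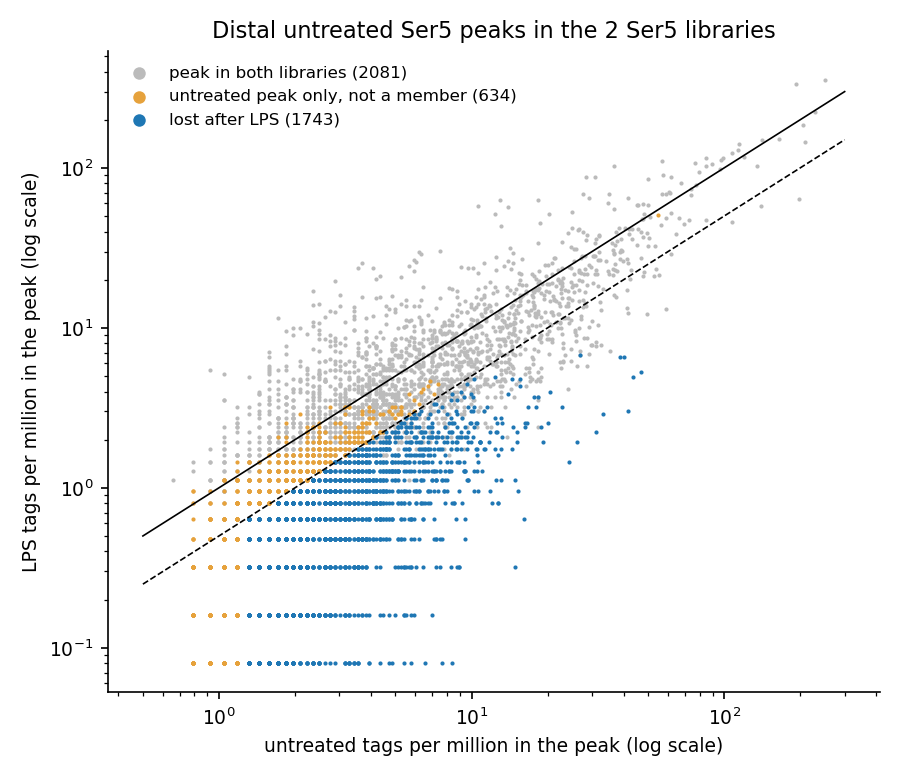
Each point is a distal untreated Ser5 peak, placed by its untreated (x) and LPS (y) RPM on log scales, with 0 tags drawn at 0.5 tags. The solid line marks equal values and the dashed line the limit of 2, and the 1743 blue points lie on or under the dashed line because the rule put them there.

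Counting error limits single regions. In 1441 of 1743 (82.7%) the interval of the LPS to untreated ratio lay wholly below 1, and in 560 (32.1%) it lay below 0.5. The rule chose the regions by these same counts and the intervals do not allow for that, so these shares carry no test. At the limit itself, 3 regions with 22 untreated and 9 LPS tags each were 2.01 times lower (ratio 0.499, 0.202 to 1.13), and they lay nearest to Cited2, Mfsd1 and 5830473C10Rik. Just outside, a peak with 34 and 14 tags near Fyb and 2 peaks with 17 and 7 tags near C030046E11Rik and Klf14 were 1.99 times lower. The values on either side of the limit are not distinguishable by count. A ratio of at least 4 was reached by 968 regions and of at least 8 by 434. The share of distal untreated peaks that met the rule was 54.2% (51.5 to 56.9) among peaks of 10 to 19 tags, 48.5% at 20 to 39, 36.6% at 40 to 79 and 10.8% (8.58 to 13.4) at 80 tags or more. The highest distal peaks were therefore mostly shared: 563 of the 632 with at least 80 tags overlapped an LPS peak.

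Around the centres of the lost regions, the untreated signal formed a narrow peak of 11.3 and 12.7 RPM per kb in the central pair of 100 bp steps. The LPS library kept a small summit of 2.69 and 2.70 at the same place, about as narrow, while input stood at 1.34 and 1.32. The difference was not confined to the peak interval. In the 500 bp on either side, outside any peak and outside gene space, untreated density was 0.986 and LPS density 0.496 RPM per kb, a ratio of 0.503 (0.486 to 0.521). The ratio was 0.609 (0.588 to 0.632) at 1 to 2 kb and 0.710 (0.693 to 0.728) at 2 to 5 kb. Beside the shared distal peaks the same flanks gave 0.754 (0.725 to 0.784) within 500 bp and 1.01 (0.981 to 1.04) at 1 to 2 kb. Distal space at least 1 kb from any peak gave 0.940 (0.937 to 0.943). The flanks come from the same 2 libraries as the rule, and are described, not tested.

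**Figure D2:**
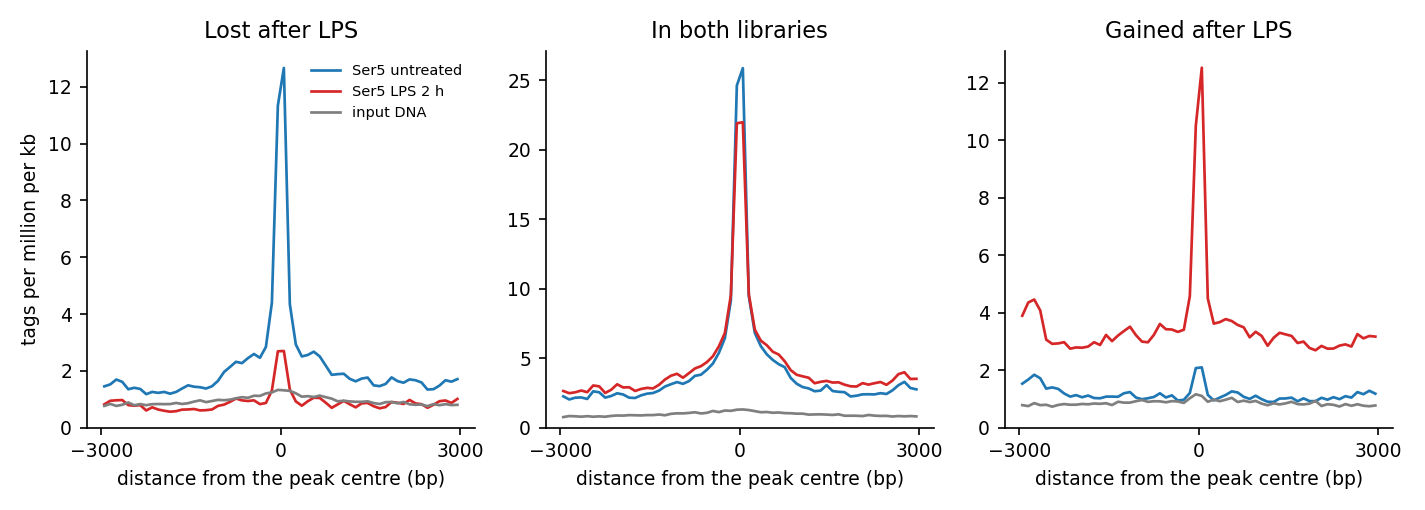
Mean RPM per kb in 100 bp steps around the densest point of distal peaks lost after LPS (left), present in both libraries (middle) and gained after LPS (right), with tags moved 75 bp downstream; the y axes differ between panels. At lost peaks the LPS line reaches 2.70 where the untreated line reaches 12.7 and input 1.32.

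The 10 regions with the most untreated tags had 8 different nearest coding genes. A neighbouring pair on chromosome 2, upstream of the organic anion transporter gene Slco4a1, came first and eighth. chr2:180175026-180177939 held 358 untreated, 33 LPS and 41 input tags (ratio 0.112, 0.0761 to 0.161), and chr2:180177971-180180037 held 204, 42 and 29 (0.251, 0.176 to 0.351). The Slco4a1 gene itself had 2481 untreated and 418 LPS tags (0.205, 0.185 to 0.228). Upstream of Lgals3, which encodes the secreted lectin galectin-3 of macrophages, chr14:47979959-47982228 held 333, 31 and 40 tags (0.113, 0.0759 to 0.164). The Zfp395 region printed above, chr14:65961937-65964218, held 317, 19 and 26 tags (0.0730, 0.0434 to 0.116). By each library's total, the LPS level was 0.934 times input in the Lgals3 region and 0.881 times in the Zfp395 region, but scaled to tags outside peaks it was 1.92 and 1.81 times. Over the 10 regions, LPS stood at or below input in 7 by all tags and in 1 by tags outside peaks.

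Next in height, chr10:22021393-22022635 held 307, 41 and 36 tags (0.163, 0.115 to 0.226) and lay 59.7 kb from the start of Raet1d, a gene of the family of ligands for the natural killer receptor NKG2D, which itself had 4 untreated tags and 1 LPS tag. chr11:79118896-79120413 held 295, 41 and 38 tags (0.169, 0.119 to 0.235) near the predicted gene Gm9964. The gene of cyclin D1, Ccnd1, which drives entry into the cell cycle, was the nearest coding gene of 2 strong regions: chr7:152296436-152298351 with 253, 18 and 26 tags (0.0867, 0.0506 to 0.140), and chr7:152216122-152217466 with 185, 9 and 20 (0.0593, 0.0267 to 0.115). They lay 172 and 91.0 kb upstream of it. The last 2 of the 10 were chr17:84517043-84519376, downstream of Zfp36l2, with 236, 14 and 35 tags (0.0723, 0.0389 to 0.124), and chr8:121949291-121950645, 8.06 kb upstream of the oxidative stress gene Osgin1, with 199, 12 and 21 (0.0735, 0.0373 to 0.131). That last region ended 303 bp from an LPS peak, and the Osgin1 gene itself had 642 untreated and 308 LPS tags (0.585, 0.509 to 0.671).

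Ranked by the upper bound of the ratio's interval, 5 of the first 10 regions had no LPS tag at all. chr7:56302131-56303040, 166 kb from E2f8, an E2F-family repressor of cell cycle genes, held 64 untreated and 9 input tags, and its LPS to untreated ratio had an upper bound of 0.0723. chr13:112686378-112686898, 87.4 kb upstream of the kinase gene Map3k1, held 58 untreated and 6 input tags (upper bound 0.0800). chr3:88317042-88318087, 3.69 kb upstream of the lamin A/C gene Lmna, held 50 and 11 (upper bound 0.0933). The other 2 without an LPS tag were chr14:32497847-32498307 near Hacl1, a peroxisomal lyase gene, with 44 and 10 tags, and chr11:43445991-43446549 near Fabp6, a bile acid binding protein gene, with 41 and 7. The BC005537 region, chr13:24881778-24882917, had 113 untreated and 2 LPS tags (0.0216, 0.00258 to 0.0797). The more distant Lgals3 region, chr14:47971169-47972280, had 123 and 4 (0.0396, 0.0106 to 0.104), but 26.9% of its 30-base starts occurred more than once in the genome.

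Lost regions occurred in groups. Chained within 10 kb of each other, 766 of 1743 (43.9%, 41.6 to 46.3) had another lost region beside them, in 306 groups of which 81 had at least 3. The share was 52.6% (50.5 to 54.8) for distal peaks in both libraries and 56.2% (53.2 to 59.1) for gained ones, and it depends on the number of peaks in each set, which differs. The largest group had 11 regions over 25.4 kb, chr17:84502625-84528074, downstream of Zfp36l2, whose product binds AU-rich elements and speeds the decay of mRNA. Its regions held 644 untreated, 61 LPS and 84 input tags (0.115, 0.0873 to 0.150). Zfp36l2 itself had 1231 untreated and 117 LPS tags (0.116, 0.0950 to 0.140), so gene and distal group stood at nearly the same ratio. A group of 9 regions on chromosome 2, chr2:30548385-30577177, held 329, 41 and 41 tags (0.152, 0.107 to 0.211), and 4 LPS peaks lay between its members. Its nearest coding gene, 1700001O22Rik, started 96.4 kb from the middle of the group and had 52 untreated and 45 LPS tags. The third, chr15:39793534-39801105, had 8 regions within 7.57 kb upstream of Lrp12, a gene of the LDL receptor family, with 308, 34 and 42 tags (0.135, 0.0915 to 0.192). Lrp12 had 833 and 182 tags (0.266, 0.226 to 0.313).

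Other groups lay by Mef2a and Zfp217, whose Ser5 did not stand lower, unlike that of Airn and Ccnd1. The 7 regions of chr7:74604688-74609865, centred 89.5 kb upstream of the transcription factor gene Mef2a, held 269, 32 and 34 tags (0.145, 0.0972 to 0.210). Mef2a itself had 1325 and 1072 (0.986, 0.909 to 1.07). The 7 regions by Zfp217 held 138, 27 and 34 tags (0.238, 0.152 to 0.362), while that gene had 1288 and 1534 (1.45, 1.35 to 1.56). The 8 regions of chr17:13001654-13014284 lay inside Airn, a long noncoding RNA gene that runs antisense to the imprinted receptor gene Igf2r; they held 152, 25 and 13 tags (0.200, 0.126 to 0.307). The whole of Airn held 1712 untreated, 357 LPS and 574 input tags (0.254, 0.226 to 0.285), a total that does not show where along the gene the tags lay. ChIP-Seq tags carry no strand of transcription, so Airn cannot be told apart from what it overlaps. In the stretch of Ccnd1 plotted below, 10 lost regions held 700, 56 and 89 tags (0.0975, 0.0729 to 0.128), and the gene 717, 64 and 80 (0.109, 0.0829 to 0.141).

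**Figure D3:**
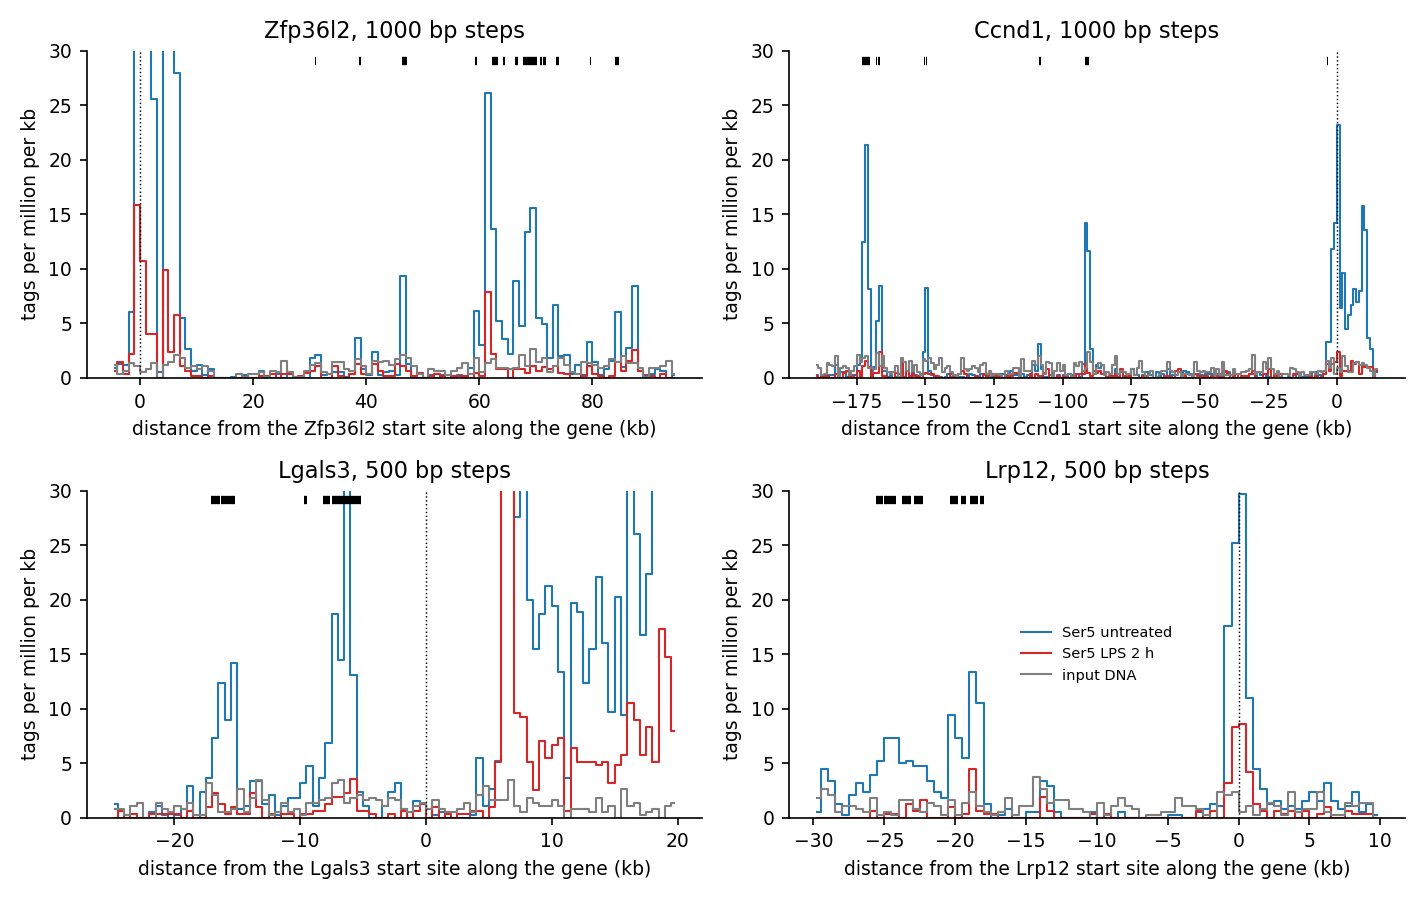
RPM per kb along 4 loci by distance from the coding start site, in steps of 1000 bp for Zfp36l2 and Ccnd1 and 500 bp for Lgals3 and Lrp12; black bars at the top mark lost regions, the dotted line the start site, and values over 30 are not drawn. In all 4 the untreated line stands over the LPS line at the bars. Over the bars of each locus, LPS stood at 0.758 to 0.976 times input by all tags and at 1.56 to 2.01 times by tags outside peaks.

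Ser5 at neighbouring genes was also lower, more often than over all genes. For the 700 lost regions with a coding start site within 20 kb, the nearest genes numbered 526, of which 483 had at least 10 Ser5 tags. Their median LPS to untreated ratio was 0.741 (0.723 to 0.799), beside 0.874 (0.869 to 0.880) over all 17386 coding genes with that many tags. At least 2 times lower were 121 of the 483 (25.1%, 21.4 to 29.1), against 11.3% of all genes, and at least 2 times higher were 12 (2.48%, 1.43 to 4.29), against 5.83%. Genes nearest to distal peaks of both libraries stood at 0.936 (0.886 to 0.970) with 11.3% lower and 12.5% higher. Those nearest to gained peaks stood at 1.61 (1.45 to 1.85) with 5.93% lower and 40.7% higher. Among the 361 genes near lost regions and no peak of the other sets, 25.8% (21.5 to 30.5) were lower. The share was 32.1% (24.2 to 41.3) of 112 genes with at least 2 lost regions and 46.7% (30.2 to 63.9) of 30 with at least 3. Of these 700 lost regions, 183 had a nearest gene at least 2 times lower, 16 at least 2 times higher, 443 between, and 58 a gene with under 10 tags. The genes were measured in the same 2 libraries that chose the regions, and regions and genes of 1 locus are not independent, so this is a description. Under scaling to tags outside peaks the median was 0.798 near lost regions and 0.941 over all genes.

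**Figure D4:**
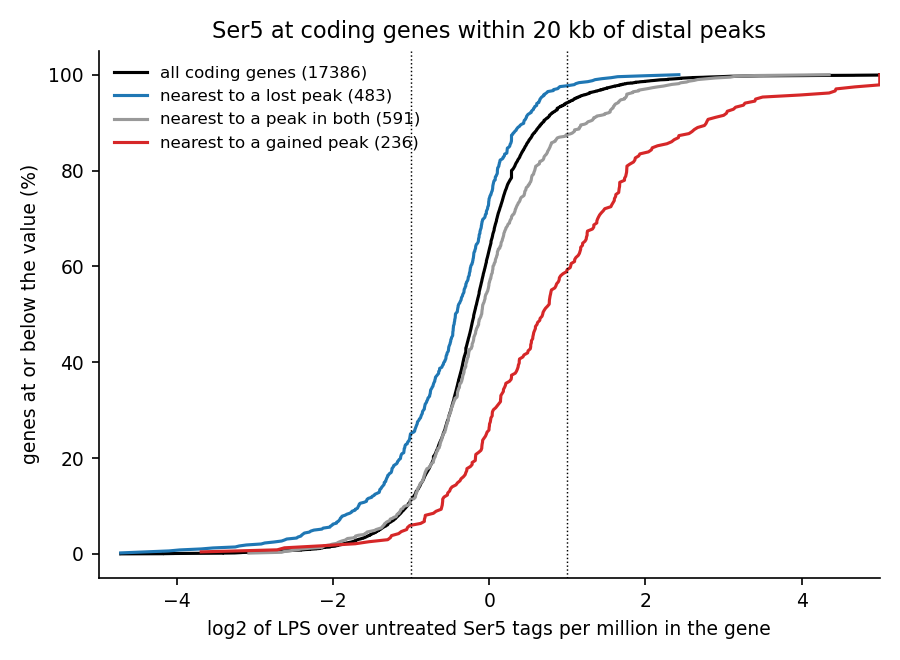
Cumulative share of coding genes by the log2 ratio of LPS to untreated Ser5 RPM, for all genes with at least 10 tags and for the nearest genes within 20 kb of lost, shared and gained distal peaks; dotted lines mark 2 times lower and higher. The line for genes near lost peaks lies left of that for all genes (medians 0.741 and 0.874 on the linear scale).

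Gene lists of macrophage function were read against the nearest start site within 100 kb. Of all 17386 coding genes with at least 10 Ser5 tags, 872 were nearest to a lost region within that distance. Over the 17386 genes, 11.3% were at least 2 times lower and 5.83% at least 2 times higher. Macrophage transcription factors had 31 lost regions at 11 of 41 genes, against 24 shared peaks at 11 genes and 28 gained peaks at 7 genes. Of the 11 genes with lost regions, 3 were at least 2 times lower and 1 at least 2 times higher. Over all 872 genes with at least 10 tags nearest to a lost region within 100 kb, these shares were 21.4% and 4.01%. The list as a whole had 9 of 41 genes lower, 5 higher and a median ratio of 0.802. chr6:108520956-108521667, 89.3 kb upstream of the bHLH repressor gene Bhlhe40, held 113 untreated, 7 LPS and 10 input tags (0.0755, 0.0297 to 0.161), and Bhlhe40 258 and 55 (0.260, 0.191 to 0.349). A pair of Mef2a regions were among the strongest of this list, chr7:74590149-74591163 with 101, 13 and 17 tags (0.157, 0.0807 to 0.281) and chr7:74608434-74609050 with 81, 6 and 6 (0.0903, 0.0322 to 0.205). Jun and Maf, which encode leucine zipper factors and were named after their values were seen, had 4 and 5 lost regions: those of Jun held 180, 8 and 27 tags and those of Maf 175, 16 and 42.

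Growth and cell cycle genes had 15 lost regions at 9 of 46 genes, against 26 shared peaks at 9 genes and 4 gained peaks at 2 genes. Of the 9 genes with lost regions 2, Ccnd1 and Dusp6, were at least 2 times lower, beside 21.4% of all 872 genes with at least 10 tags that were nearest to a lost region within 100 kb. Beside the Ccnd1 region already described, chr10:98704329-98705123, 21.1 kb upstream of Dusp6, the phosphatase gene that turns off ERK kinases, held 90, 6 and 6 tags (0.0812, 0.0290 to 0.184), and Dusp6 762 and 185 (0.296, 0.251 to 0.348). chr15:79860775-79861542 near the growth factor gene Pdgfb held 73, 11 and 14 (0.184, 0.0878 to 0.348), with Pdgfb at 189 and 169. Over the whole list 15 genes were at least 2 times lower, 1 was higher and the median ratio was 0.589. The lysosome, lipid and iron genes had 12 lost regions at 6 of 36 genes, against 18 shared peaks at 12 genes and 10 gained peaks at 3 genes. Over that list 15 genes were lower and 1 higher (median 0.610), and of the 6 with lost regions 3 were lower. The gene of the lysosomal protease cathepsin D, Ctsd, had 4459 untreated and 580 LPS tags (0.159, 0.145 to 0.173). Its regions chr7:149578372-149579481 and chr7:149580217-149581423 held 124, 16 and 15 tags (0.157, 0.0872 to 0.266) and 82, 12 and 21 (0.178, 0.0886 to 0.329). The gene of another lysosomal protease, Ctss, lay by chr3:95327285-95328142, whose 64, 24 and 14 tags gave a smaller difference (0.457, 0.273 to 0.741).

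Phagocytic and surface receptor genes had 11 lost regions at 10 of 47 genes, against 23 shared peaks at 13 genes and 8 gained peaks at 6 genes. The list stood at 14 genes lower and 9 higher (median 0.872). Of the 10 genes with lost regions 4 were at least 2 times lower, beside 21.4% of the 872 genes given above. chr7:135194168-135194723, 11.7 kb upstream of Itgam, the gene of the integrin chain CD11b, held 58, 7 and 5 tags (0.147, 0.0566 to 0.323), and Itgam 968 and 182 (0.229, 0.194 to 0.269). chr10:19303911-19304308 near Ifngr1, which encodes the ligand-binding chain of the interferon gamma receptor, held 51, 9 and 2 (0.215, 0.0931 to 0.441), whereas Ifngr1 stood at 447 and 380 (1.04, 0.901 to 1.19). chr1:184858426-184858986 near the flagellin receptor gene Tlr5 held 33, 4 and 9 (0.148, 0.0380 to 0.415). Chemotactic receptor genes had 3 lost regions at 2 of 25 genes, against 4 shared peaks at 2 genes and 3 gained peaks at 3 genes. Of that list 9 genes were lower and 3 higher, with a median of 0.948, and of the 2 with lost regions 1 was lower. The lost regions by S1pr1, the sphingosine-1-phosphate receptor gene, were chr3:115385303-115386206 with 53, 14 and 10 tags and chr3:115397062-115397430 with 17, 1 and 5. The lost region by Cxcr5 was chr9:44345991-44346404 with 27, 2 and 3.

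Inflammatory genes that LPS induces had 4 lost regions at 3 of 72 genes, against 81 gained peaks at 26 genes and 40 shared peaks at 12. Of this list 65 genes stood higher by the factor of 2, 1 lower, with a median of 5.78. The 4 lay by Fos, Dusp1 and Tnfaip3. Fos, which encodes an AP-1 subunit, had chr12:86795805-86796946 with 77, 23 and 25 tags (0.364, 0.218 to 0.586) and chr12:86828441-86828924 with 28, 8 and 9 (0.348, 0.137 to 0.784). The Fos gene had 485 and 197 tags (0.495, 0.417 to 0.585). chr17:26651575-26652085 by Dusp1, a phosphatase gene that limits p38 signalling, held 26, 7 and 7 (0.328, 0.120 to 0.776), whereas Dusp1 had 323 and 491 (1.85, 1.61 to 2.14). The region by Tnfaip3, which encodes the NF-kB inhibitor A20, was named after its values were seen: chr10:18773428-18773707 held 10 untreated, 4 LPS and 0 input tags (0.487, 0.112 to 1.69), an interval that includes 1, and Tnfaip3 had 548 and 3744 (8.33, 7.61 to 9.12). The direction of these counts follows the rule, which used the same libraries.

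Few lost regions coincided with annotated noncoding genes. Of 1743, 93 (5.34%, 4.38 to 6.49) overlapped a lincRNA gene, 50 (2.87%) a processed transcript gene, 10 a pseudogene and 2 a miRNA gene. Any gene that was not coding was overlapped by 8.61% (7.38 to 10.0), against 13.3% (11.9 to 14.8) of the shared and 11.6% (9.80 to 13.6) of the gained distal peaks. Within 2 kb of the start of a lincRNA or processed transcript lay 3.56% (2.78 to 4.53) of the lost, 7.93% (6.84 to 9.17) of the shared and 2.20% (1.49 to 3.26) of the gained peaks, so the interval of the lost set lay below that of the shared set. By summed untreated tags in regions, the processed transcript gene BC042782 came first, with 5 regions of 206, 14 and 34 tags (0.0828, 0.0445 to 0.142), while its whole span had 1695 and 722 (0.519, 0.475 to 0.567). That span covers the Jun start site and runs upstream of Jun, so its regions can be the same as those counted for Jun above. The lincRNA gene Gm14488 had 3 regions of 170, 21 and 17 tags (0.151, 0.0908 to 0.238) and 373 and 84 over its span (0.274, 0.214 to 0.349). Gm14488 lies inside the chromosome 2 group described above, so its regions are counted there as well. Pvt1, the noncoding neighbour of Myc, had 2 regions of 71, 7 and 8 tags (0.120, 0.0466 to 0.261).

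By position, the nearest coding start site was a median of 28887 bp away (26222 to 32219), beside 24165 bp (22857 to 25781) for shared and 32897 bp (29720 to 35132) for gained distal peaks. It was within 20 kb for 40.2% (37.9 to 42.5) of lost regions and over 100 kb for 14.8%. Lost regions lay upstream of that start in 77.3% (75.3 to 79.2), against 76.8% and 74.2% in the other sets. The rule itself favours upstream sites, since it removes genes and their 3′ flanks. The gap to the nearest LPS peak had a median of 14119 bp (12487 to 15656). An LPS peak lay within 1000 bp of 202 regions (11.6%) and within 10 kb of 760 (43.6%). A peak call alone does not give how much Ser5 was kept at that neighbouring site.

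Sequence was not used by the rule. In the 300 bp windows, the PU.1/ETS letters GAGGAAGT were held by 221 lost regions, 12.7% (11.2 to 14.3), beside 8.60% (7.47 to 9.88) of shared and 6.34% (5.04 to 7.94) of gained distal peaks and 1.81% of the 4647873 tiled windows of distal space. The interval of the lost set did not overlap that of either other set. Within the lost set's middle range of GC content, 47.3% to 54.0%, the shares were 14.1%, 10.1%, 6.63% and 2.67%, in the same order. They rest on 919 lost, 908 shared and 407 gained windows. No interval was computed for them, so the lack of overlap was not checked in that range. The matches sat near the summit: 4.65% and 4.13% of lost regions had one in the central pair of 100 bp steps, against 0.631% and 0.803% in the steps that began 300 bp before and 200 bp after the centre. This was not particular to the lost set. In the same steps shared peaks had 2.98% and 3.22% against 0.769% and 0.673%, and gained peaks 1.65% and 2.57% against 0.918% and 1.01%. The AP-1 letters TGANTCA were held by 19.4% (17.6 to 21.3) of lost, 17.0% (15.5 to 18.7) of shared and 16.4% (14.4 to 18.8) of gained peaks and 8.92% of tiled windows, so the 3 sets were not distinguishable by their intervals. Both motifs stood together in 34 lost windows (1.95%), beside 1.15% of shared and 0.551% of gained windows.

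The NF-kB, IRF and STAT/BCL6 motifs were not more frequent in lost regions than in shared or gained peaks. NF-kB matches were held by 6.25% (5.21 to 7.49) of lost, 9.13% (7.97 to 10.4) of shared and 10.5% (8.79 to 12.4) of gained peaks, and by 3.44% of tiled windows. Within the same middle range of GC content the values were 6.09%, 9.47%, 10.3% and 7.54%, so the lost set was not above tiled windows there. The IRF letters were held by 10.6% (9.20 to 12.1), 12.2% (10.9 to 13.7) and 16.7% (14.6 to 19.0), and the STAT/BCL6 letters by 7.75% (6.58 to 9.10), 10.7% (9.41 to 12.1) and 11.1% (9.38 to 13.1). Tiled windows held these at 12.5% and 11.9%, but tiled windows had a median GC content of 40.3% and the lost windows 50.3%. In that GC range lost and tiled windows stood at 11.0% and 7.50% for IRF and at 7.73% and 7.64% for STAT/BCL6. The GC box GGGCGGG was in 8.26% (7.06 to 9.65) of lost, 14.9% (13.4 to 16.5) of shared and 3.03% (2.17 to 4.23) of gained peaks, against 1.02% of tiled windows, and in that GC range 5.44%, 7.60%, 2.70% and 2.44%. The ETS core CCGGAAG, a letter string of promoters, was in 4.36% (3.50 to 5.42), 6.30% (5.33 to 7.42) and 1.74% (1.12 to 2.71), against 0.684%.

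For C/EBP, RUNX (TGTGGTT), MAF, MEF2, CTCF, E-box, EGR (GCGGGGGCG) and the nuclear receptor letters AAAGGTCA, the lost and shared intervals overlapped. Their shares in lost regions were 14.2%, 9.24%, 7.46%, 4.53%, 0.688%, 5.85%, 0.344% and 0.975%, and in tiled windows 14.5%, 6.78%, 3.85%, 5.13%, 0.0554%, 2.51%, 0.0229% and 1.75%. In the middle GC range, in the same order, lost regions stood at 14.04%, 9.47%, 7.62%, 4.57%, 0.218%, 6.31%, 0.218% and 0.762%, and tiled windows at 10.1%, 5.90%, 6.36%, 3.76%, 0.0981%, 3.83%, 0.0539% and 1.26%. For C/EBP and MEF2 the lost share was thus below the tiled share over all windows and above it in that range. TATAAA was in 9.87% (8.55 to 11.4) of lost, 9.85% (8.64 to 11.2) of shared and 14.9% (12.9 to 17.1) of gained peaks and 29.3% of tiled windows. In the middle GC range these were 9.36%, 8.15%, 9.09% and 12.5%. None of the 16 motifs was found in 463 lost windows (26.6%), beside 23.5% of shared and 25.8% of gained windows. MAF letters can overlap AP-1 letters, and GC boxes can overlap EGR letters and each other. A match is a string of letters and no evidence of binding, and 16 motifs were compared with no correction.

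**Figure D5:**
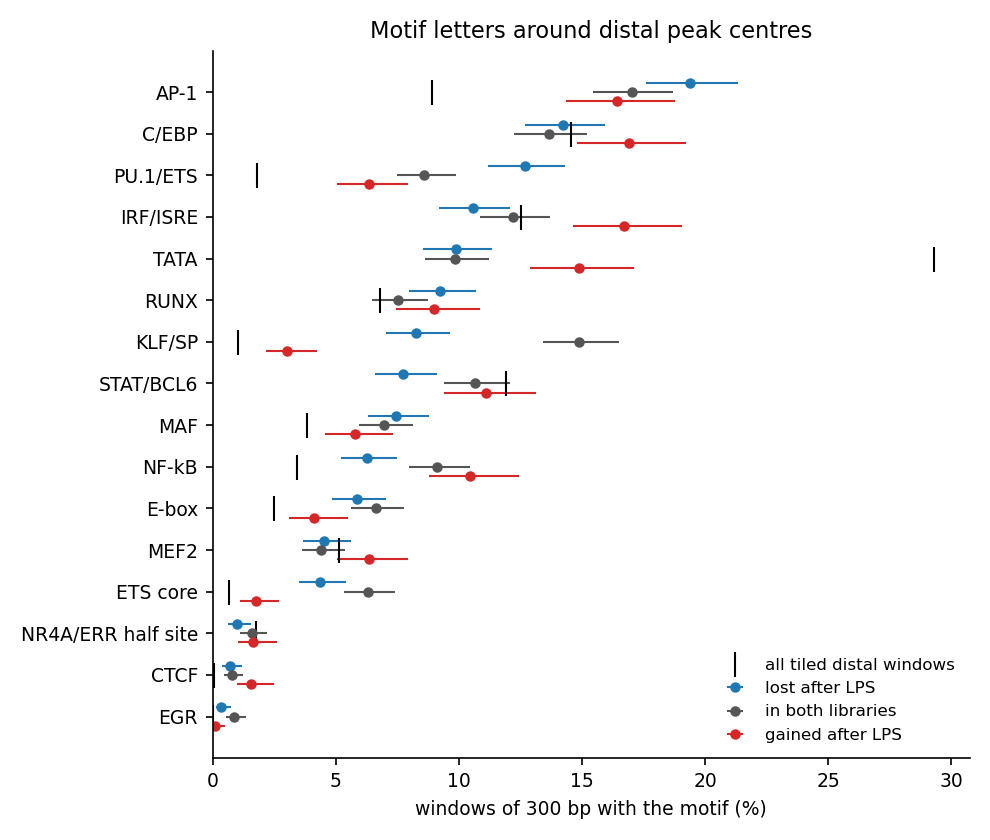
Share of 300 bp windows around distal peak centres that hold each motif, for peaks lost after LPS, in both libraries and gained after LPS, with 95% Wilson intervals; black ticks give the share over all tiled windows of distal space. PU.1/ETS stands at 12.7% in lost, 8.60% in shared and 6.34% in gained peaks.

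CpG-rich windows (GC at least 50% and a CpG ratio of at least 0.6) made up 4.48% (3.60 to 5.55) of lost, 15.8% (14.3 to 17.4) of shared and 2.30% (1.56 to 3.37) of gained peaks. Lost regions were therefore less often CpG-rich than shared ones by these intervals, at a median GC content of 50.3% against 51.3%. GC content moved with the LPS to untreated ratio outside peaks too: in distal space without peaks, that ratio was 1.02 (1.01 to 1.03) in 1 kb bins under 35% GC and 0.894 (0.883 to 0.906) at 50% to 55%. Among distal untreated peaks of at least 10 tags, the share that met the rule was 29.2% (21.0 to 38.9) under 40% GC. It was 46.8% (44.1 to 49.6) at 45% to 50% and 20.8% (17.1 to 25.1) at 60% or more. The part of GC content in the loss was not tested. Of the 30-base starts in the lost regions, 2.15% occurred more than once in the genome, beside 2.10% in shared and 1.87% in gained distal peaks. At systematic positions in distal space the share was 21.4%. Only uniquely mappable reads were kept, so a low share in peaks follows from the alignment. Only exact copies were counted, so diverged repeats were not measured. The untreated tags were 45 bases long and the LPS tags 30, and 98.9% of the untreated tags in the regions began with a 30-base sequence found once. Counting only those left 1724 regions. Distinct positions made up 85.7% of untreated and 86.2% of LPS tags there, and 91 regions had under 10 distinct untreated positions. Plus and minus tags were balanced (50.4% plus), with the median minus tag 69 bp downstream of the median plus tag in untreated, 60 bp in LPS and 14 bp in input.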

How the data were processed

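Ser5 ChIP-Seq tags of untreated and LPS-treated macrophages and of input DNA were analysed with 1 library per group. Per the labels, the authors aligned reads to mm9 with Bowtie. Per the study's methods, uniquely mappable Ser5 reads with at most 2 mismatches were kept, and each Ser5 library had its peaks called by MACS, with input as control and a p-value threshold of 1e-05. Tool versions were not given in the sources used here. The methods give 30 bases for the untreated and 45 for the LPS reads, whereas the files hold 45 and 30. The deposited peak lists give each peak a score, which MACS takes from the log10 of the peak's p-value, with a lowest value of 50 here, and it was used only for alternatives. The deposited tag files hold positions, counted from 0 by a check of 30-base starts against the genome. Peak coordinates are printed as deposited, and sequence windows are counted from 1 on NCBIM37 (the mm9 build).

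From these files, tags were counted by 5′ end in peaks and genes (GENCODE M1) and divided by each library's tags. The centre of a region was its densest 100 bp after tags were moved 75 bp downstream. Gained peaks met the mirrored rule. Ratio intervals are exact and conditional on the sum of counts, shares have Wilson intervals and medians order-statistic intervals, all at 95%. The functions were tested on simulated data. The regions, gene lists and motifs were chosen with earlier results of these data known. Named regions were the 10 with the most untreated tags, the 10 with the lowest upper bound, up to 3 per gene list within 100 kb, 3 on each side of the limit and the 3 largest chains; other names were chosen after their values were seen. Reads came from Fvb mice and the reference is another strain, whose effect was not tested. Sequences were printed only for regions outside chromosome 18, whereas motif shares cover every region. Scripts ran in Python 3.11.15 with numba 0.67.0, scipy 1.17.1, numpy 2.4.6 and pandas 2.3.3, and plots were drawn with matplotlib 3.10.9.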

Additional observations from a re-analysis of the deposited data

How the results depend on the processing

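No paired analysis was possible because each group had 1 library, and leaving a library out gives no value. Of 59 alternative values, 44 stayed within their limits (1.5 times for the count of regions, the 95% interval for other values) and 15 moved. None of the 59 turned its direction. LPS against input over the plotted loci was not among the 59 and did turn, as given below. The count of 1743 was 1006 with peaks of score at least 100 in both lists, 809 with that score in the untreated list and 1043 with at least 20 tags. The LPS to untreated ratio was 0.232 with 1 tag per position and 0.239 scaled to tags outside peaks. That scaling gave 12.4 for untreated and 2.98 for LPS against input, and over the plotted loci it turned LPS from below to above input; 1 tag per position gave 1.52 for LPS against input. In regions of score at least 100, motif shares were 11.4% for C/EBP, 6.18% for STAT/BCL6, 0.247% for CTCF, 7.42% for E-box and 10.9% for KLF/SP. Chaining within 50 kb put 59.6% of regions in groups, and LPS peaks of score at least 100 lay a median of 22780 bp away.

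The ratios of single regions are limited by counts: 700 of the 2116 distal untreated peaks without an LPS peak and with at least 10 tags were members with under 20 tags. The culture, treatment and run of each library cannot be told apart, and differences in immunoprecipitation between the libraries were not tested.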
